A study of Mus musculus with 6 samples.

Results

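The genes described here, 10 in number, encode proteins of intermediate filaments and were followed in mouse mammary tumour cells with and without knockdown of CdGAP. They were taken by symbol: the simple epithelial keratins Krt7, Krt8, Krt18, Krt19 and Krt20, the basal keratins Krt5 and Krt14, the keratin Krt80, and the mesenchymal filament genes Vim and Nes. All 10 were found among the 41214 genes of the count tables, and 9 had enough counts to be tested. The tested libraries came from cells with a hairpin against CdGAP (shCdGAP, genotype given as CdGAP KD, 3 libraries), set against cells with a control hairpin (shCTL, genotype given as WT, 3 libraries). Both groups were explant cells of mammary tumours derived from NMuMG, an epithelial line of the normal mouse mammary gland, and both express the receptor ErbB2. The study asked how CdGAP, a GTPase-activating protein that inactivates Cdc42 and Rac1, acts with the repressor Zeb2 on the E-cadherin gene. The labels do not say how many hairpin sequences, clones or explants were used, nor whether each replicate was its own culture. The p-values therefore reflect only how these 6 libraries varied, which may be technical.

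Intermediate filaments are rope-like polymers that give cells mechanical strength. Keratins form them only as partners, with an acidic type I chain (Krt14, Krt18, Krt19, Krt20) joined to a basic type II chain (Krt5, Krt7, Krt8, Krt80). In the mammary gland Krt8, Krt18 and Krt19 mark luminal cells and Krt5 and Krt14 mark basal and myoepithelial cells. Vimentin (Vim) and nestin (Nes) are filaments of mesenchymal and progenitor cells, and vimentin is widely used as a marker of epithelial-mesenchymal transition, in which epithelial cells lose cell contacts.

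Library totals ran from 19176540 to 26824249 fragments, so 1 fragment was worth 0.0373 to 0.0521 CPM (counts scaled to 1e+06 per library). With no fragment seen, a gene could still be at up to 0.112 CPM in the deepest and 0.156 CPM in the shallowest library (3 counts, counting error only). Arhgap31, which encodes CdGAP, was at 1.70, 9.16 and 8.21 CPM in shCdGAP replicates 1 to 3, against 13.2, 14.4 and 15.1 CPM in shCTL. Every shCdGAP library was below every shCTL library, but the change did not pass on all 6 libraries (log2 fold change −1.16, adjusted p = 0.19). The library of shCdGAP replicate 1 stood apart on the second principal component (21.7% of the variance). It was also low in the mitotic kinase gene Cdk1, which was at 39.8, 395 and 366 CPM in shCdGAP replicates 1 to 3, against 232, 364 and 360 CPM in shCTL. Each result is also given without this library where that changes the call, and without it the Arhgap31 log2 fold change was −0.71 (adjusted p = 0.00407).

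The labelled mammary epithelial origin was checked with marker genes. Of 20 luminal markers 14 had any count, with a summed level of 1095 to 1292 CPM in shCdGAP and 726 to 830 CPM in shCTL, most of it from the surface glycoprotein gene Cd24a. Of 9 tested luminal markers 2 rose and 5 fell, where 10.4% and 11.4% of all tested genes did. Cd24a rose to 1062 ± 93.5 CPM in shCdGAP, against 512 ± 8.87 CPM in shCTL (SD, n = 3 each, adjusted p = 0.00127), and the mucin gene Muc1 rose too (58.6 ± 18.7 CPM in shCdGAP against 8.05 ± 0.2 CPM in shCTL). The luminal transcription factor gene Foxa1, the casein gene Csn3 and the EGF receptor ligand gene Areg fell (log2 fold changes −2.18, −3.52 and −2.22). The other two that fell, named after their values were seen, were the oestrogen receptor gene Esr1 and the epithelial adhesion gene Epcam. Epcam had no count in shCdGAP, against 1.65, 1.06 and 1.17 CPM in shCTL. Esr1 and Epcam passed the filter on low counts through shCTL alone, so they could hardly be tested without being lower in shCdGAP. The progesterone receptor gene Pgr, the tight junction genes Cldn3 and Cldn7, and the milk genes Csn2, Wap and Lalba had no count in any library.

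Of 15 basal or myoepithelial markers 14 had any count, with a sum of 1222 to 1527 CPM in shCdGAP and 1328 to 1420 CPM in shCTL. The defining genes were at or near 0, since Acta2, the actin of myoepithelium, had no count and Trp63, the master factor of basal cells, reached 0.0894 CPM at most. Among the 7 tested, the integrin gene Itga6 fell (log2 fold change −2.29). The ErbB receptor ligand gene Nrg1 (1.37), the matrix gene Sparc (0.93) and, named after its values were seen, the calponin gene Cnn1 rose. Cnn1 passed the filter on low counts through shCdGAP alone, so it could hardly be tested without being higher there. Over all tested genes 10.4% rose and 11.4% fell. The Sparc call was kept without shCdGAP replicate 1 and lost without each of the other libraries (adjusted p 0.0646 to 0.11). Markers of cells outside the epithelium were low. Their sums were 3.45 to 7.06 CPM in shCdGAP and 5.39 to 6.40 CPM in shCTL for fibroblasts (8 of 11 with any count), and 0.136 to 0.804 CPM in shCdGAP and 2.42 to 2.56 CPM in shCTL for endothelium (6 of 8). For leukocytes they were 7.02 to 18.3 CPM in shCdGAP and 19.0 to 24.0 CPM in shCTL (9 of 10). For adipocytes they were 0.816 to 1.51 CPM in shCdGAP and 4.40 to 4.85 CPM in shCTL (5 of 6), and for skeletal muscle 0.0453 to 0.0894 CPM in shCdGAP and 0.155 to 0.226 CPM in shCTL (5 of 8). Schwann cell and neuron markers summed to 1.74 to 5.05 CPM in shCdGAP and 2.51 to 3.10 CPM in shCTL (8 of 10). In shCTL the leukocyte sum came mostly from the lysosomal gene Cd68, which was at 10.9, 5.53 and 2.93 CPM in shCdGAP replicates 1 to 3. In shCdGAP replicate 3 Cd68 was less of the sum than the other leukocyte markers together. The pan-leukocyte gene Ptprc reached 0.358 CPM at most in any library. Of the 3 leukocyte genes tested, Itgam, named after its values were seen, rose (1.41 ± 0.236 CPM in shCdGAP, against 0.213 ± 0.123 CPM in shCTL, adjusted p = 0.00788). Itgam also passed the filter on low counts through shCdGAP alone. The macrophage receptor gene Csf1r had a log2 fold change of 1.03 (adjusted p = 0.206), and Cd68 one of −1.45 (adjusted p = 0.0709). The endothelial, adipocyte and muscle sums were lower in shCdGAP, as was the leukocyte sum through Cd68, and the part of these markers in the filament results was not tested.

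Between genes, levels are compared as CPM per kilobase of annotated exon, since a longer transcript yields more fragments. Averaged over the 6 libraries, Krt18 (2312) and Krt8 (2239) led, and the gap between them was smaller than their spread. Vim (878) and Krt19 (419) followed, then Krt20 (26.6), Krt80 (6.29) and Nes (5.45). Krt7 (0.526), Krt5 (0.31) and Krt14 (0.0142) were lowest. Nes stood above Krt80 in every shCTL library and below it in every shCdGAP library. Krt5 likewise stood above Krt7 in every shCTL library and below it in every shCdGAP library. The Krt7 exons in the files span 7055 bases in all. Over the 4094 bases of 1 annotated transcript, the mean level was 1.36 ± 0.443 in shCdGAP and 0.455 ± 0.0783 CPM per kilobase in shCTL, still below the group means of Krt80 and Nes.

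**Figure D1:**
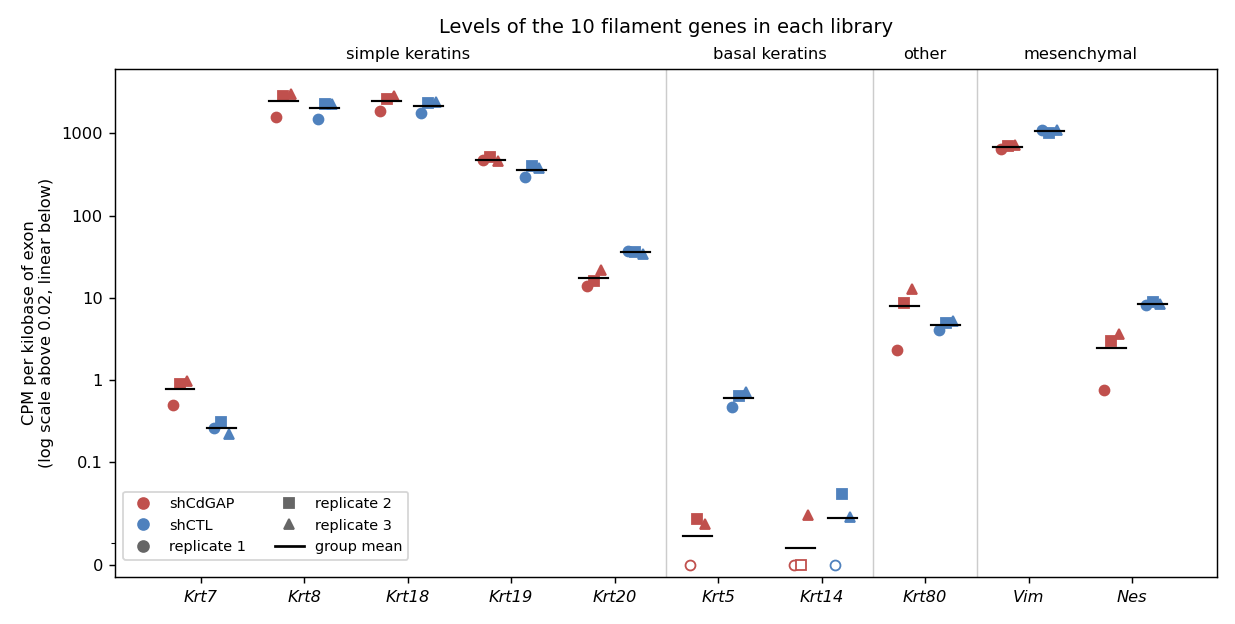
Level of each of the 10 genes in each library, in CPM per kilobase of exon (y axis, logarithmic above 0.02 and linear below, open symbols at 0), with shCdGAP libraries left of shCTL libraries, a symbol for each replicate number and black lines at group means. Krt7 and Krt19 sit higher, and Krt20, Krt5, Vim and Nes lower, in every shCdGAP library than in any shCTL library, while Krt8, Krt18, Krt14 and Krt80 overlap.

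Of the simple keratins, the most abundant partners Krt8 and Krt18 were not called, Krt7 rose and Krt20 fell. Krt8 (ENSMUSG00000049382, chromosome 15, 101996711 to 102004342, GRCm38 in all cases) was at 2853, 5195 and 5372 CPM in shCdGAP replicates 1 to 3, and at 2682, 4048 and 4104 CPM in shCTL. Krt18, the obligate partner of Krt8 (ENSMUSG00000023043, chromosome 15, 102028216 to 102032026), was at 2594, 3703 and 4000 CPM in shCdGAP, and at 2495, 3292 and 3338 CPM in shCTL. Both genes were lowest in the 2 libraries numbered 1, and the groups overlapped because shCdGAP replicate 1 lay among the shCTL libraries. Within each replicate number the shCdGAP library was the higher, by 0.09, 0.36 and 0.39 on the log2 scale for Krt8 and by 0.06, 0.17 and 0.26 for Krt18. Over all libraries the log2 fold changes were 0.31 ± 0.29 (SE, adjusted p = 0.505) and 0.17 ± 0.206 (adjusted p = 0.603). Without shCdGAP replicate 1 that of Krt8 was 0.56 and passed (adjusted p = 0.0368), while that of Krt18 was 0.35 and did not (adjusted p = 0.0784). In bulk RNA such as this, fewer cells expressing a gene and less RNA per cell cannot be told apart.

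Krt19, the smallest keratin and a luminal marker (ENSMUSG00000020911, chromosome 11, 100140810 to 100148665), was at 866, 956 and 848 CPM in shCdGAP, and at 551, 741 and 705 CPM in shCTL. The groups did not overlap, but the log2 fold change of 0.42 ± 0.14 did not pass (adjusted p = 0.0819). It was 0.45 and passed without shCdGAP replicate 1 (adjusted p = 0.0275). Krt7, a type II keratin of ducts and glands (ENSMUSG00000023039, chromosome 15, 101411043 to 101430313), had 78, 141 and 172 fragments in shCdGAP, or 3.49, 6.39 and 6.82 CPM, against 36, 60 and 41 fragments, or 1.86, 2.18 and 1.54 CPM, in shCTL. All shCdGAP libraries were higher, and Krt7 rose 2.99-fold (log2 fold change 1.58 ± 0.318, adjusted p = 0.016). That call was lost without shCTL replicate 1 (adjusted p = 0.0694), shCTL replicate 2 (0.056), shCTL replicate 3 (0.077) or shCdGAP replicate 2 (0.0601). Krt20, a keratin best known from intestine and bladder lining (ENSMUSG00000035775, chromosome 11, 99428403 to 99438150), was at 26.9, 31.2 and 42.1 CPM in shCdGAP, against 71.9, 70.1 and 64.8 CPM in shCTL. It was lower in all shCdGAP libraries and fell by 1.04 ± 0.18 on the log2 scale (adjusted p = 0.0093), a call kept in all 11 alternative fits (adjusted p 6.06e-05 to 0.0483). The simple keratins therefore did not move as a set, with Krt7 and Krt20 called in opposite directions.

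Basal keratins were close to absent in both groups. Krt5, the type II keratin of basal cells (ENSMUSG00000061527, chromosome 15, 101707070 to 101712891), had 0, 1 and 1 fragments in shCdGAP, against 20, 38 and 42 in shCTL. That is 2 fragments against 100, a ratio of levels of 0.0211 (exact 95% binomial interval 0.00252 to 0.0782, counting error only), and the gene fell (adjusted p = 0.00138). Krt5 passed the filter on low counts through shCTL alone, where it averaged 1.33 ± 0.278 CPM, so it could hardly be tested without being lower in shCdGAP. Krt14, its type I partner (ENSMUSG00000045545, chromosome 11, 100203162 to 100207548), had 0, 0 and 1 fragments in shCdGAP and 0, 2 and 1 in shCTL, too few for a test or a fold.

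Some other keratins of stratified epithelium and hair showed the same imbalance at low counts, and some did not. Krt10, Krt15 and Krt28 are named after their values were seen. Krt10 was not called (5.18 ± 0.869 CPM in shCdGAP, 4.64 ± 0.558 CPM in shCTL, adjusted p = 0.642). For Krt15 the groups overlapped, and Krt28 had 6 fragments in shCdGAP and 0 in shCTL. Of the 69 genes of the filament family in the annotation (54 keratins and 15 others), 23 had no fragment in any library and 26 reached 15 fragments in at least 1 group. Of these 26, 7 (26.9%) had at most 3 fragments in shCdGAP, and none had that pattern the other way round. Over all genes, 390 of 15003 (2.6%) had at most 3 fragments in shCdGAP and 109 (0.727%) at most 3 in shCTL. These limits were set after the values were seen, and no test was made. The 15003 genes were not matched to the 26 in level, and a gene with many fragments can hardly have at most 3 in a group. The family share and the share over all genes are therefore not like for like. The 7 were Krt5, Krt6a, Krt13, Krt27, Krt36, Krt39 and Krt76. They lie on chromosomes 11 and 15, as do all 54 keratins of the family (27 on each), so their location does not set them apart. Krt6a, a keratin of wounded and growing epidermis, had no fragment in shCdGAP and 7, 28 and 36 in shCTL, and was at least 22.4-fold lower (floor of 3 fragments over the group). Krt13, a keratin of the oral and oesophageal lining, had 3 fragments in shCdGAP and 48 in shCTL (ratio 0.0659, interval 0.0131 to 0.204). Krt76, a keratin of the palate, had 2 in shCdGAP and 46 in shCTL (ratio 0.0458, interval 0.00539 to 0.175). Krt6a shares sequence with close copies and its counts are uncertain for that reason.

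**Figure D2:**
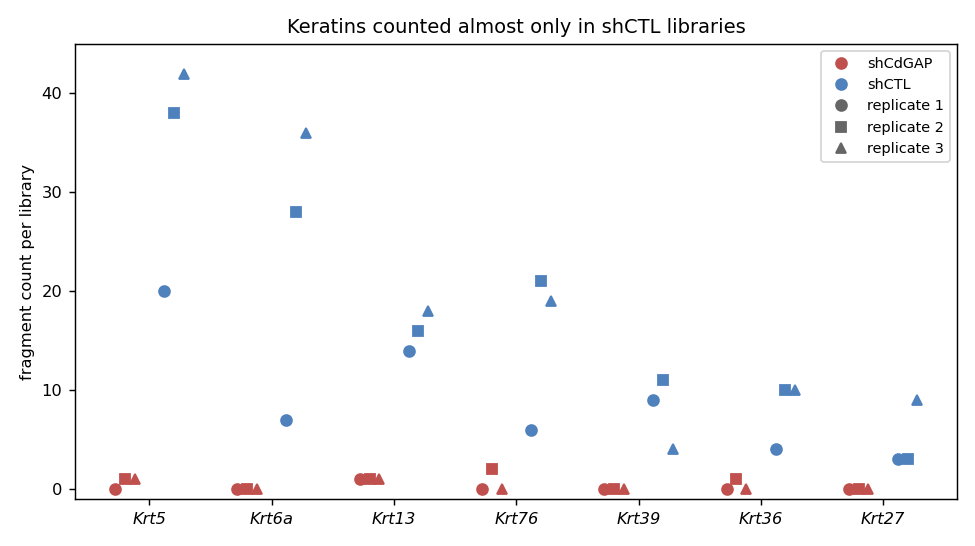
Fragment counts per library (y axis) of the 7 keratins with at least 15 fragments in shCTL and at most 3 in shCdGAP, with shCdGAP libraries left of shCTL libraries and a symbol for each replicate number. The shCdGAP libraries hold 0 to 2 fragments of each, while the shCTL libraries hold 3 to 42.

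Krt80, a type II keratin of differentiating epithelium, differed mainly among the shCdGAP libraries. It (ENSMUSG00000037185) lies on chromosome 15 from 101349571 to 101370125, 40917 bases from Krt7. Its level was 4.11, 15.1 and 22.7 CPM in shCdGAP replicates 1 to 3, against 7.12, 8.73 and 9.18 CPM in shCTL. Replicate 1 of shCdGAP lay below all shCTL libraries and the other two above them. The log2 fold change was 0.74 ± 0.553 (adjusted p = 0.394), and 1.19 without shCdGAP replicate 1, which passed (adjusted p = 0.00213).

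The mesenchymal filament genes were both lower in every shCdGAP library, and of the pair Vim was called. Vim (ENSMUSG00000026728, chromosome 2, 13573927 to 13582826) was at 1519, 1621 and 1678 CPM in shCdGAP, against 2573, 2384 and 2531 CPM in shCTL. The spread within each group was small beside the gap between them. Vim fell 1.55-fold (log2 fold change −0.64 ± 0.103, adjusted p = 0.00725), and it passed in all 11 alternative fits with log2 fold changes of −0.69 to −0.59. It remained the most abundant filament transcript after Krt8 and Krt18 in both groups. Nes (ENSMUSG00000004891, chromosome 3, 87971078 to 87980451) was at 4.87, 19 and 23 CPM in shCdGAP, against 52, 57.1 and 53.6 CPM in shCTL. Its lowest level was in shCdGAP replicate 1. The log2 fold change of −1.79 ± 0.515 just missed the threshold (adjusted p = 0.0518). It passed without shCdGAP replicate 1 (−1.35, adjusted p = 8.67e-05), with the replicate number as a block (−2.02, adjusted p = 0.04997) and with DESeq2 (−1.78, adjusted p = 0.00377). Scaling by total counts (adjusted p = 0.0486) and no filter on low counts (adjusted p = 0.0378) also took it past the threshold. The spread over all its alternative fits was 8.67e-05 to 0.143.

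Among the 9 tested genes, 1 rose (Krt7) and 3 fell (Krt5, Krt20 and Vim), where 10.4% of all 13483 tested genes rose and 11.4% fell. In 6 of the 9 the groups did not overlap, with 2 above and 4 below, where 44.1% of all tested genes had such groups (21.7% above, 22.4% below). Krt5 is in both counts, but it passed the filter on low counts through shCTL alone. Its fall and its place among the 4 below were therefore nearly fixed by that filter. The median log2 fold change was 0.17 over the 9 and 0.01 over all tested genes. Without shCdGAP replicate 1, 4 rose (Krt7, Krt8, Krt19 and Krt80) and 4 fell (Krt5, Krt20, Vim and Nes), where 19.9% of tested genes rose and 21.9% fell. The count of risen genes on all libraries thus rested on Krt7, and it was 0 without any 1 shCTL library or without shCdGAP replicate 2 (edgeR, with 1 or 2 risen at an unadjusted p under 0.05). DESeq2 called 1 risen and 4 fallen, where 1876 of the 17122 genes it tested rose and 2051 fell. With the replicate number as a block 1 rose and 4 fell, where 9.47% and 10.9% of all tested genes did.

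**Figure D3:**
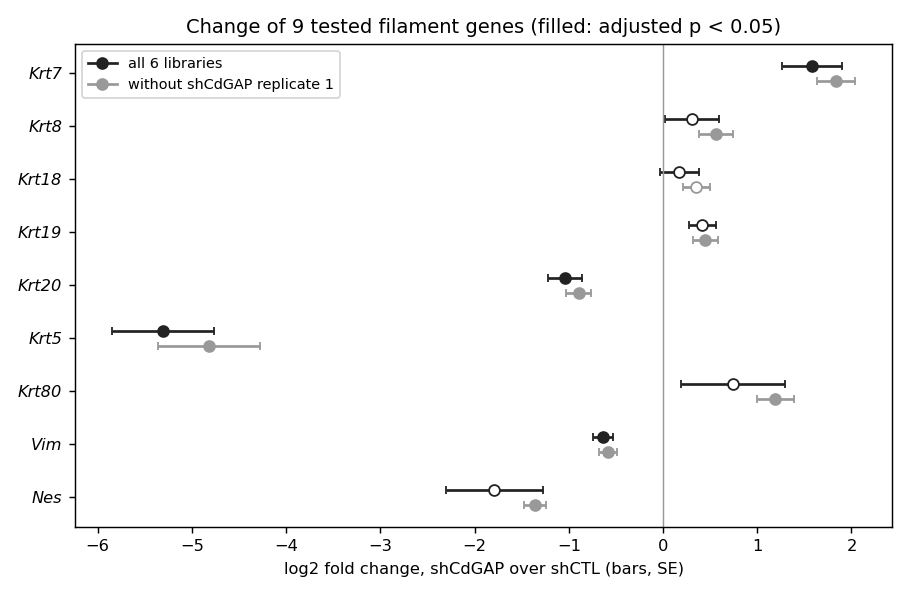
Log2 fold change of the 9 tested genes, shCdGAP over shCTL (x axis, bars are SE), from the edgeR fit on all 6 libraries (black) and without shCdGAP replicate 1 (grey), filled where the adjusted p was under 0.05. Krt7, Krt20, Krt5 and Vim are filled in both fits, and Krt8, Krt19, Krt80 and Nes only without that library.

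As shares of the summed level per kilobase of the 10 genes, simple keratins took more and mesenchymal filaments less of the pool in shCdGAP. Simple keratins made up 85.7%, 89.6% and 89.6% in shCdGAP replicates 1 to 3 (88.3 ± 2.24%, SD, n = 3), against 76.4%, 82.9% and 82.2% in shCTL (80.5 ± 3.59%). All shCdGAP libraries were above all shCTL libraries. Mesenchymal filaments made up 14.3%, 10.3% and 10.2% in shCdGAP (11.6 ± 2.3%), against 23.5%, 17% and 17.7% in shCTL (19.4 ± 3.59%). The groups did not overlap, and within both the library numbered 1 had the highest share. Basal keratins made up 0 to 0.000577% in shCdGAP and 0.00999 to 0.012% in shCTL. Krt80 took 0.0507%, 0.126% and 0.181% in shCdGAP and 0.0851%, 0.0812% and 0.0839% in shCTL. Simple and mesenchymal shares together made up nearly all of the pool, so the rise of the former and the fall of the latter are not separate results. No test was made of these sums over chosen genes. The mesenchymal share was nearly all vimentin, at 11.6 ± 2.31% in shCdGAP and 19.3 ± 3.57% in shCTL, with nestin at 0.0371 ± 0.0181% in shCdGAP and 0.151 ± 0.0186% in shCTL. The ratio of Vim to Krt8 plus Krt18 per kilobase was 0.189, 0.126 and 0.123 in shCdGAP, against 0.337, 0.222 and 0.233 in shCTL.

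**Figure D4:**
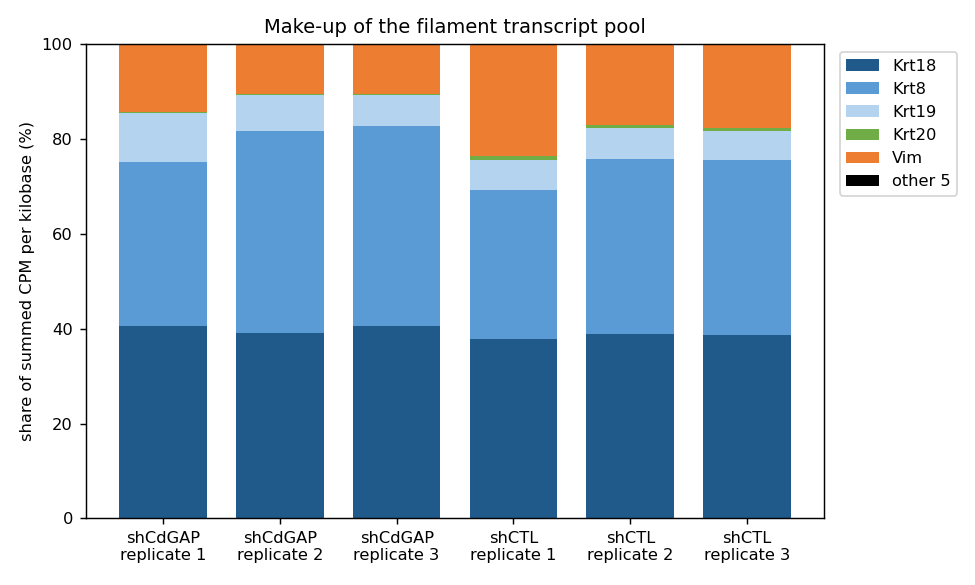
Share of each gene in the summed CPM per kilobase of the 10 genes (y axis, percent), a stacked bar for each library with shCdGAP left of shCTL. The 5 other genes (Krt5, Krt7, Krt14, Krt80 and Nes) form a layer too thin to see, and the Vim layer at the top is 10.2% to 14.2% in shCdGAP and 16.8% to 23.4% in shCTL.

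Within the keratin pool, the balance of the partner types and the makeup of type I were compared per kilobase. Type II chains summed to 1583, 2888 and 2990 CPM per kilobase in shCdGAP, and to 1491, 2248 and 2280 in shCTL. Type I chains summed to 2334, 3177 and 3336 in shCdGAP, and to 2117, 2787 and 2798 in shCTL. The ratio of type II to type I was 0.828 ± 0.13 in shCdGAP and 0.775 ± 0.0619 in shCTL, a difference smaller than the spread, and the libraries numbered 1 had the lowest ratio in both groups. Among type I chains, the ratio of Krt20 to Krt19 was 0.03, 0.0315 and 0.0478 in shCdGAP, against 0.125, 0.0911 and 0.0885 in shCTL, and the groups did not overlap. That follows from Krt20 being lower and Krt19 higher in every shCdGAP library, so it is not a separate result. The ratio of Krt19 to Krt18 was 0.252, 0.195 and 0.16 in shCdGAP and 0.167, 0.17 and 0.159 in shCTL, and these overlapped.

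In the rest of the filament family 2 genes were called, both at levels that passed the filter on low counts through shCTL alone, as for Krt5. Of the 59 family genes beyond the 10, 8 were tested. Bfsp1, which encodes a filament protein of the eye lens, was at 0.317 ± 0.283 CPM in shCdGAP, against 1.97 ± 0.277 CPM in shCTL (log2 fold change −2.58, adjusted p = 0.0216), and lost its call without any 1 shCTL library or without shCdGAP replicate 2 (adjusted p up to 0.0845). Krt13, described above, was the other (adjusted p = 0.00122). Both were below 5 CPM, and they and the lamin genes are named after their values were seen. The lamins, relatives that build the nuclear lamina, varied most within shCdGAP, where replicate 1 was lowest. Lmna, the A-type lamin gene, was at 289, 593 and 652 CPM in shCdGAP, against 723, 832 and 857 CPM in shCTL. The groups did not overlap, but the log2 fold change of −0.65 ± 0.297 did not pass (adjusted p = 0.175), and it was −0.36 and passed without shCdGAP replicate 1 (adjusted p = 0.0262). Lmnb1, a B-type lamin gene, was at 22.3, 105 and 110.2 CPM in shCdGAP and 71, 78.9 and 86.1 CPM in shCTL (adjusted p = 0.993). The sign of its log2 fold change differed between scalings. It passed as higher without shCdGAP replicate 1 (0.46, adjusted p = 0.00676), and so did Lmnb2 (0.58, adjusted p = 0.00828). Over the whole family 1 tested gene rose and 5 fell of 17, where 10.4% and 11.4% of all tested genes did. The median log2 fold change of the 17 was −0.02. Without shCdGAP replicate 1, 6 rose and 11 fell of 22 tested, where 19.9% and 21.9% of all tested genes did. Among those that fell, Krt39, Krt6a, Krt76 and the peripherin gene Prph, named after their values were seen, stayed at or below 0.0907 CPM in shCdGAP. They passed the filter on low counts through shCTL alone. DESeq2 called 1 higher and 12 lower of the 46 family genes with any fragment. Some of the 46, Krt14 among them, got no adjusted p and could not be called. Of the 17122 genes it tested, 1876 were called higher and 2051 lower, so the 46 and the 17122 may not count genes alike.

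Among genes whose products anchor filaments, 1 rose and 3 fell of 18 tested, near the 10.4% and 11.4% of all tested genes that did, with a median log2 fold change of −0.15. Dst, a plakin that ties keratins to hemidesmosomes, was at 404 ± 69.9 CPM in shCdGAP, against 629 ± 43.5 CPM in shCTL (adjusted p = 0.025). Syne3, a nuclear envelope protein that binds plectin, fell to 12.6 ± 3.08 CPM in shCdGAP, against 30.8 ± 2.07 CPM in shCTL (adjusted p = 0.00615). The third that fell was Tchh, a hair protein, at 0.361 ± 0.0799 CPM in shCdGAP and 0.905 ± 0.178 CPM in shCTL, and the gene that rose was the plakophilin gene Pkp1, at 3.29 ± 0.455 CPM in shCdGAP and 1.62 ± 0.0663 CPM in shCTL. Tchh, Pkp1, Plec and Dsp are named after their values were seen. Tchh passed the filter on low counts through shCTL alone. Of these 4, Syne3 kept its call when any library was left out. Dst and Tchh lost theirs without any library other than shCdGAP replicate 1 (adjusted p up to 0.103 and 0.105), and Pkp1 without any shCTL library (up to 0.0949). Plec, the main linker of keratin and vimentin, was not called (adjusted p = 0.698). Neither was the desmosomal linker gene Dsp (adjusted p = 0.0823). The Tchh call was also lost with no filter (0.0523) and with the replicate block (0.0738). Without shCdGAP replicate 1, 5 linker genes rose and 4 fell, where 19.9% and 21.9% of all tested genes did, and with the replicate block 1 rose and 2 fell.

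Among kinases, phosphatases, chaperones and other binders of filaments, 6 rose and 1 fell of 29 tested, where 10.4% and 11.4% of all tested genes did, with a median log2 fold change of 0.09. Kank1, an adaptor of cell adhesions that regulates actin, was at 32.9, 20.9 and 13.9 CPM in shCdGAP, against 5.31, 3.64 and 4.44 CPM in shCTL. It rose by 2.34 ± 0.349 on the log2 scale (adjusted p = 0.00545) and kept its call when any library was left out. Stub1, a ubiquitin ligase that works with chaperones, was at 143 ± 23 CPM in shCdGAP and 89 ± 3.82 CPM in shCTL (adjusted p = 0.0168). Ppp1ca, a catalytic subunit of protein phosphatase 1, was at 666 ± 85 CPM in shCdGAP and 454 ± 21.2 CPM in shCTL (adjusted p = 0.0233). Trim32, a ubiquitin ligase known to act on desmin, fell to 23.9 ± 1.79 CPM in shCdGAP, against 33.2 ± 3.01 CPM in shCTL (adjusted p = 0.0435). The calls of Stub1, Ppp1ca and Trim32 were lost without any 1 shCTL library or without shCdGAP replicate 2 (adjusted p up to 0.0898, 0.111 and 0.147), and those of Ppp1ca and Trim32 also without shCdGAP replicate 3 (0.0602 and 0.106). The Trim32 call was lost with the replicate block (0.0522) and with no filter (0.0666) too. Without shCdGAP replicate 1, 8 genes of this list rose and 3 fell, where 19.9% and 21.9% of all tested genes did, and with the replicate block 5 rose and 0 fell (edgeR). Among proteases that cut filaments, the calpain gene Capn2 fell. It was at 187 ± 7.93 CPM in shCdGAP, against 290 ± 5.03 CPM in shCTL (adjusted p = 0.0044), and kept its call when any library was left out.

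Because the study concerns Zeb2, a repressor known to bind the E-box CACCTG, the sequence before each start site was searched for those letters on both strands (CAGGTG on the other). Zeb2 itself was at 17.6 ± 1.75 CPM in shCdGAP, against 34.4 ± 8.04 CPM in shCTL (adjusted p = 0.0158, and 0.0668 without shCdGAP replicate 2). Cdh1, the E-cadherin gene, rose to 768 ± 85.3 CPM in shCdGAP, against 232 ± 51.5 CPM in shCTL (adjusted p = 0.00193). The search is described for 7 of the 10 genes (RefSeq promoters, GRCm38.p6). The 250 bases before the start were searched, and 17.2% of all 32851 promoters and 15.4% of those of tested genes held a match. These 7 are not all promoters searched, so no share of the 10 genes is set against that background. Matches of 3 genes are printed 5′ to 3′ on the strand of the gene, each with 12 bases on both sides and the match in capitals, so that their surroundings can be compared:
Krt7, chr15:101412347-101412376, plus strand, 44 bases before the start: ccgccctgtcccCACCTGtgtgcgctcagc
Krt18, chr15:102027990-102028019, plus strand, 214 bases before the start: aggggctaacacCACCTGctatcctttgtg
Krt5, chr15:101713016-101713045, minus strand, 128 bases before the start: cacaccactgtgCAGGTGtgctgggtgagc
Distances run from the first base of the match to the RefSeq start. The match of Krt7 lies in an annotated exon of the gene, and those of Krt18 and Krt5 lie outside annotated exons of their genes. No match was found for Krt14, Krt20, Vim and Nes. The RefSeq start of Krt14 lies 1518 bases inside the gene, that of Krt7 1360 bases and that of Vim 384 bases, so other starts of these genes were not searched. Of the genes whose match is printed, Krt7 rose, Krt5 fell and Krt18 was not called. For comparison, the upstream bases of both called keratins whose windows lie outside exons are given, the first with the match in capitals and the second with none:
Krt5, chr15:101712906-101713155, minus strand: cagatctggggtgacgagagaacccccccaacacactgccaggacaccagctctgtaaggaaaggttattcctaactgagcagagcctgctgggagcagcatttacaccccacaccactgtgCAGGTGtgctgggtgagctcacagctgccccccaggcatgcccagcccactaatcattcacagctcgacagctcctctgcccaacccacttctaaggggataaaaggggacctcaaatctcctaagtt
Krt20, chr11:99438154-99438403, minus strand: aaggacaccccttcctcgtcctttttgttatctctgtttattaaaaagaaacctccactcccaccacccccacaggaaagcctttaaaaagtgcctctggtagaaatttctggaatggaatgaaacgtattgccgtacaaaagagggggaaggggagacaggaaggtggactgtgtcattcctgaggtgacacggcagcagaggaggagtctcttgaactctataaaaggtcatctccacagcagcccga
Such a match describes the letters and is not evidence of binding.

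Genes with the most similar profiles were found as the smallest root mean square difference in log2 CPM, each gene centred on its own mean over the 6 libraries, among 10296 genes with at least 5 CPM. For Krt18, the simple keratin with the highest mean per kilobase over the 6 libraries, they were Gas8 (0.0296), Arl6ip5 (0.0391) and Tarsl2 (0.0435). For Vim they were the NAD kinase gene Nadk (0.037), Tmem259 (0.0395) and the transcription factor gene Zbtb17 (0.0497). Nadk, for example, was at 192, 194 and 205 CPM in shCdGAP, against 309, 301 and 299.5 CPM in shCTL. For Krt80 they were Ildr2 (0.163), the replication licensing gene Cdt1 (0.168) and Dnph1 (0.171), and Cdt1 shared its order of libraries in shCdGAP, at 24.4, 86.6 and 121 CPM, against 51.1, 57 and 67.6 CPM in shCTL. For Krt5 the nearest of these candidates were Rasl11a (0.299), Sorcs2 (0.313) and Slc41a2 (0.318). Krt5 itself was under 5 CPM in every library, so genes at its level were not candidates. Whether such genes match it more closely was not examined. The likenesses are descriptions over 6 libraries that differ in group and depth, and no test was made.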

How the data were processed

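The authors deposited 1 file per library (3 shCdGAP, 3 shCTL), holding raw counts of fragments for each gene. Per the file headers they were made with featureCounts 1.4.6 from TopHat alignments, on read pairs with both ends aligned, strand setting 2 (reverse) and Ensembl release 77 on GRCm38, with no option set to count reads with several alignments. The submitters' processing notes also name TopHat2 2.0.14, Trimmomatic 0.30, DESeq, Cuffdiff 2.2.1 and CASAVA 1.8. Total RNA was extracted with TRIZOL, per the labels' protocols. Symbols from GENCODE M21 matched 40254 of 41214 genes.

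Changes were tested with edgeR 4.0.16 in R 4.3.3 over all genes kept by filterByExpr (minimum count 10, minimum total 15), with TMM scaling, the quasi-likelihood test of group and Benjamini-Hochberg adjustment over 13483 genes. Genes with an adjusted p under 0.05 are called and said to have risen or fallen. All adjusted p-values come from edgeR where no tool is named. A positive log2 fold change means higher in shCdGAP, and its SE was derived as its size over the root of the F statistic. CPM are TMM-scaled, parts per 1e+06. Log2 CPM used a prior count of 2. DESeq2 1.42.0, other filters, total-count scaling, the replicate block and leaving out each library were alternatives. On counts simulated for the 13483 genes the edgeR steps called 93% of 4-fold changes and 41.7% of 2-fold changes, with 4.32% of calls false. Only 100 genes were changed at each size there, with no library standing apart and no pairing. These rates may therefore not hold for the real libraries.

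The labels number the replicates 1 to 3 in each group. Deviations from the group means correlated at 0.36, 0.29 and 0.25 between libraries of the same number, all over 0.1, so the numbers are taken as pairs. Libraries 2 and 3 also correlated across numbers (0.25 for shCdGAP 2 with shCTL 3, 0.19 for shCdGAP 3 with shCTL 2), so number 1 alone stood apart. The pairing rests on the data, because no label ties a number to a day or batch. The first test leaves this pairing out, and blocked values stand where they change a call.

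The 10 genes and all lists were chosen with earlier results of these data known. Beyond the 10, the text names up to 3 risen and 3 fallen genes of each list by smallest p, given 5 CPM or more in the group where it is higher, or a list's 2 most abundant genes where none was called, with Arhgap31, Cdh1, Zeb2 and likeness to 4 of the 10 genes. Exceptions are said to be named after their values were seen. Not analysed here were 2 listed linker genes, and a protease and a promoter are not reported here. Counts without shCdGAP replicate 1 or with the block for the 3 linker, binder and protease lists were added after seeing the data.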

Additional observations from a re-analysis of the deposited data

How the results depend on the processing

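Of 97 alternative fits of the 9 tested genes none turned a direction, 85 stayed on their side of the threshold, 4 (all of Krt7) lost the call and 8 gained it. The changes that ended or made a call stand beside each gene. The count of risen genes among the 10 was 0 (edgeR, 1 at an unadjusted p under 0.05) when genes averaging under 10 CPM were dropped, Krt7 among them, and 0 to 4 with a library left out. For the filament family the risen count was 0 under that filter and 0 to 6 with a library left out. Its fallen count was 12 with DESeq2 and 12 with no filter on low counts, since more low keratins were then tested, 2 at 10 CPM, and 4 to 11 with a library left out. The Arhgap31 log2 fold change ran from −1.51 to −0.71 with a library left out, and passed without shCdGAP replicate 1. With the replicate number as a block, 1 of the 10 genes rose and 4 fell, the added fall being Nes (adjusted p = 0.04997), and it changed no other call among the 10. On counts in place of counts per kilobase the difference in the basal share was −0.0133 percentage points, against −0.0107 per kilobase, and those in the simple and mesenchymal shares were 10.1 and −10.1, against 7.77 and −7.80 per kilobase. Krt5, Krt14 and the other low keratins are limited by depth, since a count of 0 allows up to 0.156 CPM in the shallowest library. Log2 fold changes of genes at 0 to 3 counts in a group depend on the prior count.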
